A study of Mus musculus with 20 samples.

Results

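The distal convoluted tubule (DCT) cells of mouse kidneys were followed through bilateral ischemia reperfusion injury (IRI) of 2 durations. The cells were those to which the first deposited annotation gives the cluster name DCT, 8339 of 113579 cells in 18 single-cell RNA-seq libraries. DCT was the 5th largest of 18 clusters. Of its cells, 3392 came from control kidneys, 3696 from short IRI and 1251 from long IRI.

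The distal convoluted tubule lies between the thick ascending limb of the loop of Henle and the connecting tubule. Its cells take up sodium and chloride from the urine through the thiazide-sensitive cotransporter NCC, the product of Slc12a3, and their early part makes the calcium-binding protein parvalbumin (Pvalb). They also reabsorb magnesium, and their late part passes gradually into the connecting tubule and the collecting duct. The deposited tables used here hold cluster names and UMAP coordinates but no expression values, so the label could not be checked against Slc12a3 and Pvalb, and DCT denotes here the authors' cluster of that name.

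The study compared male C57BL/6J mice aged 10 to 12 weeks whose renal pedicles were both clamped for 23 min (IRI short) or 30 min (IRI long), killed 1, 3 or 14 d later, with controls. Control had 6 libraries, and each duration had 2 at every day. According to the study each library came from a single mouse. The labels name the controls only as Control, with no statement on a sham operation or on the vehicle that the inhibitor experiment used. A second annotation of 20 libraries adds 1 library from IRI long with VX-765, a caspase-1 inhibitor given as a pyroptosis inhibitor at 100 mg/kg, and 1 from IRI long with the ferroptosis inhibitor liproxstatin at 10 mg/kg, both at 14 d.

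Libraries held 2064 to 14320 cells and 33 to 1428 DCT cells, and are called here by the names that their cells carry. The library names give no replicate number. Cell barcodes split the libraries: 5 of the 6 control libraries shared 461 barcodes over their 10 pairs, the sixth control library (norm5) and the 12 IRI libraries shared 871 over 78 pairs, and only 53 were shared over the 65 pairs across these sets. Estimated from the barcodes that pairs shared, the list from which barcodes were drawn held 600626 to 1023910 barcodes in the first set and 1889880 to 13404900 in the second, over the pairs; the sets were split on this estimate, at 1500000. The labels name the same kit for all libraries, and whether another kit or run lay behind the first set was not tested. The sets overlap almost fully with control against IRI, so that a difference from control cannot be told apart from one between the sets except through norm5. Contrasts of the DCT shares and of the ratios with control, over all days, are therefore also given against norm5 alone. Of the DCT cells, 228 (2.73%) had a barcode that another library also held, and 16 of their 231 partner cells were DCT cells, against 17.2 at the partner libraries' own DCT shares.

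DCT cells made up a smaller share of all cells after IRI long than in control or after IRI short. In control the share ran from 4.90% (Scl) through a median of 11.3% to 15.4% (norm5), with a mean of 10.4% ± 3.81 (SD, n = 6). After IRI short the share ran from 6.12% through a median of 7.64% to 13.1%, with a mean of 8.27% ± 2.53 (n = 6). After IRI long it ran from 1.60% through a median of 2.64% to 6.73%, with a mean of 3.20% ± 1.87 (n = 6). IRI long overlapped with the other groups through 1 library only: 5 of the 6 IRI long libraries lay below every control and every IRI short library, and the other (IRF5, 1 d) lay above 1 control and 2 IRI short libraries.

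The difference between IRI long and control was -7.22 percentage points (two-sided exact permutation test over libraries, adjusted p = 0.0390). That between IRI long and IRI short was -5.07 points (exact permutation within days, adjusted p = 0.0417). For IRI short against control it was -2.15 points (exact permutation, adjusted p = 0.471). On the logit scale, the log of the odds that a cell is a DCT cell, limma gave -1.31 ± 0.25 (SE) for IRI long against control (adjusted p = 9.6e-05), where 83.3% of the 18 clusters passed the same threshold. It gave -1.09 ± 0.25 for IRI long against IRI short (adjusted p = 0.00339), where 27.8% passed. IRI short against control gave -0.22 ± 0.25 (adjusted p = 0.433; 66.7% passed), and its 95% interval from -0.75 to 0.30 leaves room for a change in either direction. With the centred log-ratio, which sets a cluster against the mean over all 18, IRI short against control passed (-1.30, limma adjusted p = 2.48e-05). With immune cells taken out of the denominator it gave 0.43 (limma adjusted p = 0.0917). The exact permutation call between IRI long and IRI short was lost without IRF2 (-4.99 points, adjusted p = 0.0833), whereas that of limma was kept without any one library. Against norm5 alone, the control with the highest share, the differences were -7.15 points for IRI short and -12.2 points for IRI long.

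By day, the 2 libraries of IRI long had DCT shares of 3.46 and 6.73% at 1 d, 1.60 and 2.11% at 3 d, and 2.11 and 3.17% at 14 d. For IRI short they were 7.56 and 8.68% at 1 d, 6.12 and 6.44% at 3 d, and 7.72 and 13.1% at 14 d. Both arms had their lowest mean at 3 d, and on each day both IRI short libraries lay above both IRI long libraries. The IRI long share lay below control at 3 d (logit difference -1.75 ± 0.35, limma adjusted p = 0.000174; 88.9% of clusters called) and at 14 d (-1.41 ± 0.35, adjusted p = 0.00137; 72.2% called). At 1 d the difference was -0.76 ± 0.35 (adjusted p = 0.0669, 61.1% called). Without IRF5 it was -1.11 (adjusted p = 0.0402), without Scl -0.91 (adjusted p = 0.0195) and without IRF1 -0.41 (adjusted p = 0.457). It passed with the arcsine square root (-0.10, limma adjusted p = 0.0405), the centred log-ratio (-1.69, adjusted p = 8.49e-05) and the second annotation (-0.83, adjusted p = 0.0299). Under the second annotation the names DCT1 and DCT1, DCT2 were pooled. That pool is not the DCT cluster, since 76.8% of the cells named DCT1, DCT2 came from the loop of Henle cluster of the first annotation. The barcode set as a term, thus against norm5 alone, gave -1.28.

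No day of IRI short passed against control, with logit differences of -0.21, -0.48 and 0.03 at 1, 3 and 14 d (limma adjusted p from 0.205 to 0.962). Of the clusters, 55.6, 72.2 and 55.6% were called. The centred log-ratio passed at 1 d (-1.29, limma adjusted p = 0.00121), 3 d (-1.71, adjusted p = 8.08e-05) and, with the sign turned, 14 d (-0.89, adjusted p = 0.0145). With the second annotation 3 d passed (-0.78, limma adjusted p = 0.0383). Without immune cells in the denominator 1 and 3 d gave 0.21 and 0.35 (limma adjusted p = 0.546 and 0.309). Between the durations, the logit difference passed at 14 d (-1.44 ± 0.43, limma adjusted p = 0.0130, 33.3% called). It did not pass at 3 d (-1.27 ± 0.43, adjusted p = 0.159, 0% called) or 1 d (-0.55 ± 0.43, adjusted p = 0.563, 5.56% called). The 14 d call was lost without IRF10 (-1.15, adjusted p = 0.177) or IRF12 (-1.23, adjusted p = 0.111). It was also lost with the second annotation (-1.07, limma adjusted p = 0.0527) and with its name DCT1 alone (-0.87, adjusted p = 0.185). The value for DCT1 alone does not describe DCT cells only. In IRF12, 28 of the 283 cells named DCT1 were DCT cells and 240 were cells of the proximal tubule cluster PT S3. For IRF9 these were 94 and 83 of 225. The change from 1 to 14 d did not pass between the durations (-0.89 ± 0.61, adjusted p = 0.367; 11.1% called).

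A share of all cells moves with the number of other cells, and fewer DCT cells cannot be told apart from more cells of other kinds in these data. The immune share of a library ran from 6.11 to 17.8% in control, from 37.8 to 62.8% after IRI short and from 41.7 to 80.6% after IRI long. With immune cells taken out of the denominator, the logit difference of DCT was -0.18 for IRI long against control (limma adjusted p = 0.524) and -0.60 for IRI long against IRI short (adjusted p = 0.0703). By day, the call of IRI long against control ended at 3 d (-0.59, adjusted p = 0.120) and at 14 d, where its sign turned (0.17, adjusted p = 0.747), and so did that between the durations at 14 d (-0.54, adjusted p = 0.295).

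**Figure D1:**
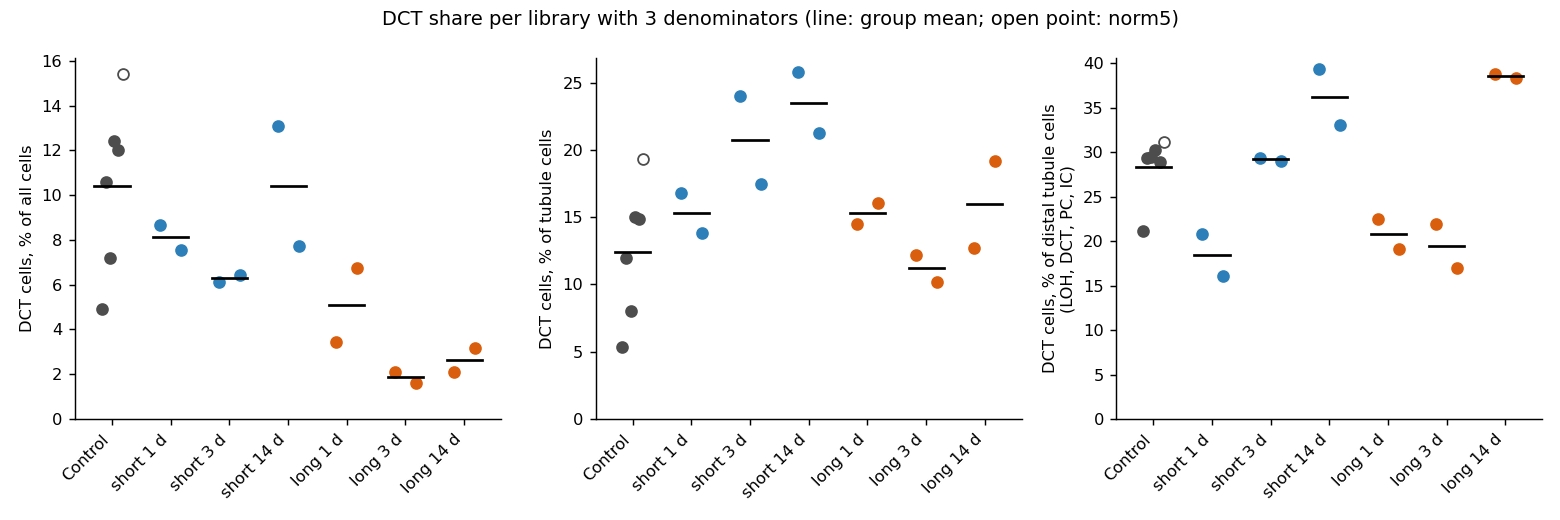
DCT cells of each library as percent of all cells, of tubule cells and of distal tubule cells (vertical axes), for control and for each ischemia duration and day (horizontal axis). Points are libraries, lines are group means and the open point is norm5; the IRI long libraries sit low in the first panel (1.60 to 6.73%), whereas in the third panel the 1 d libraries of both durations sit at 16.1 to 22.5% and the 14 d libraries at 33.0 to 39.4%.

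Among tubule cells (proximal tubule, loop of Henle, DCT, principal and intercalated cells), the DCT share was not low after injury. It ran from 5.37 to 19.3% in control (median 13.4%), from 13.8 to 25.8% after IRI short (median 19.4%) and from 10.2 to 19.2% after IRI long (median 13.6%). IRI short lay 7.43 points above control, which did not pass the threshold (exact permutation, adjusted p = 0.0909), and against norm5 alone the difference was 0.54 points. IRI long lay 1.72 points above control (exact permutation, adjusted p = 0.654), but against norm5 alone the difference was -5.17 points. IRI long against IRI short gave -5.71 points (exact permutation within days, adjusted p = 0.104). Without norm5 the difference between IRI short and control passed (8.81 points, exact permutation, adjusted p = 0.0390).

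Against the distal tubule alone, counted as LOH (loop of Henle), DCT, PC (principal cell) and IC (intercalated cell), the DCT share was low at 1 d and high at 14 d after both durations. In control it ran from 21.2% (Scl) through a median of 29.4% to 31.2%, and the 5 libraries other than Scl lay between 28.9 and 31.2%. At 1 d it was 16.1 and 20.8% after IRI short and 19.1 and 22.5% after IRI long. Only 1 of these 4 libraries, at 22.5%, lay above the lowest control. At 3 d it was 29.0 and 29.4% after IRI short, inside the control range, and 17.01 and 22.0% after IRI long. At 14 d it was 33.0 and 39.4% after IRI short and 38.4 and 38.8% after IRI long, so that all 4 lay above every control.

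Averaged over days these shares did not separate the arms: 28.4% ± 3.62 in control, 28.0% ± 8.39 after IRI short and 26.3% ± 9.72 after IRI long (n = 6 each; exact permutation, adjusted p from 0.654 to 0.890), and against norm5 alone the differences were -3.21 and -4.86 points. By day, limma on the logit share among the 4 distal clusters, a fit added after seeing the data, placed DCT below control at 1 d after IRI short (-0.56 ± 0.15, adjusted p = 0.00346) and after IRI long (-0.41 ± 0.15, adjusted p = 0.0258), with 75% of the 4 clusters called in each. The share was also below control at 3 d after IRI long (-0.49 ± 0.15, adjusted p = 0.0135; 75% called), with 0.05 ± 0.15 at 3 d after IRI short (adjusted p = 0.763; 25% called). At 14 d it was above control after IRI long (0.47 ± 0.15, adjusted p = 0.0175; 50% called), and the value after IRI short was 0.36 ± 0.15 (adjusted p = 0.0656; 25% called).

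The contrast of 14 d with 1 d, whose estimate does not use the controls although its error pools the spread of all libraries, was 0.93 ± 0.19 after IRI short (limma adjusted p = 0.000952; 50% called) and 0.87 ± 0.19 after IRI long (adjusted p = 0.00160; 25% called), and both calls held without any one library. The difference between these changes was -0.05, with a 95% interval from -0.62 to 0.52 (adjusted p = 0.845; 0% called). Each called contrast of a day with control was lost without one of its own 2 libraries. Among these were IRF5 for IRI long at 1 d (-0.30, adjusted p = 0.228) and IRF7 for IRI long at 3 d (-0.33, adjusted p = 0.241). For IRI long at 14 d either IRF12 (0.46, adjusted p = 0.104) or IRF9 (0.48, adjusted p = 0.0884) had this effect, and without norm5 IRI short passed at 14 d (0.39, adjusted p = 0.0421). Between the durations, the difference at 3 d was -0.53 ± 0.19 (limma adjusted p = 0.0519; 0% called), and it passed without any one of Scl, norm5 and IRF4 (-0.53 to -0.69, adjusted p from 0.0113 to 0.0441). With the barcode set as a term norm5 is the only control, assumed to vary like the other libraries, and contrasts among IRI libraries are those of the fit without norm5. So fitted, IRI long gave -0.54 at 1 d (adjusted p = 0.113) and 0.33 at 14 d (adjusted p = 0.282).

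Ratios of DCT cells to each other tubule cluster showed which neighbours moved with these shares. Proximal tubule (PT) cells, the sum of the clusters PT S1 and PT S3, reabsorb most of the filtered load and are the tubule cells best known to be injured in ischemia. For each PT cell there were 0.07 to 0.51 DCT cells in control (median 0.25), 0.44 to 1.32 after IRI short (median 0.81) and 0.19 to 1.00 after IRI long (median 0.33). On the log2 scale IRI short lay 1.92 above control (exact permutation, adjusted p = 0.0260), and against norm5, the control with the most DCT cells per PT cell, the difference was 0.61. With the second annotation, which pools the names DCT1 and DCT1, DCT2, this call was lost (1.31, exact permutation, adjusted p = 0.0779). IRI long lay 0.80 above control (exact permutation, adjusted p = 0.351) and at -0.51 against norm5. IRI long against IRI short gave -1.12 (exact permutation within days, adjusted p = 0.0833), and without IRF5 -1.41 (adjusted p = 0.0370).

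LOH cells, which include the cells of the thick ascending limb just upstream of the DCT, gave the most even ratio in control, at 0.48 to 0.70 DCT cells per LOH cell (median 0.65). It was 0.26 and 0.32 at 1 d after IRI short, and 0.32 and 0.37 at 1 d after IRI long, all below the control range. At 3 d it was 0.54 and 0.65 after IRI short and 0.37 and 0.50 after IRI long. At 14 d it was 0.65 and 0.80 after IRI short and 0.74 and 0.78 after IRI long, and 3 of these 4 lay above every control. Over all days the arms differed from control by -0.30 (IRI short) and -0.35 (IRI long) on the log2 scale, which did not pass (exact permutation, adjusted p = 0.487 and 0.351), and from norm5 alone by -0.17 and -0.22.

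PC cells are the collecting duct cells that take up sodium and water, and IC cells are those that secrete acid or base. DCT cells per PC cell ran from 1.12 to 4.62 in control, from 0.86 to 5.06 after IRI short and from 0.51 to 4.87 after IRI long. No difference between these groups passed (exact permutation, adjusted p from 0.487 to 0.578). On the log2 scale IRI short differed from control by -0.41 and IRI long by -0.68, and from norm5 alone by -0.88 and -1.15. The lowest 2 ratios were those of IRI long at 3 d (0.51 and 0.80). The 3 highest after injury were those of IRF10 and of both IRI long libraries at 14 d (5.06, 4.66 and 4.87). DCT cells per IC cell were higher after injury: 1.31 to 7.04 in control (median 1.97), 5.79 to 15.8 after IRI short (median 10.4) and 3.37 to 19.1 after IRI long. The log2 difference from control was 2.07 for IRI short (exact permutation, adjusted p = 0.0260) and 1.86 for IRI long (exact permutation, adjusted p = 0.0433).

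The 7.04 of norm5 stood apart from the other 5 controls, which reached 3.45, and against norm5 alone the log2 differences per IC cell were 0.49 and 0.28. The IRI long call was lost without any one of 10 libraries (adjusted p from 0.0519 to 0.0833), while that of IRI short was kept without any one library. With the second annotation neither passed (1.71 for IRI short and 1.53 for IRI long, exact permutation, adjusted p = 0.0519 and 0.0779). IC cells were few, between 6 and 138 in the IRI libraries, which limits the precision of this ratio. The part of the barcode set in these 2 differences was not tested, since it overlaps with the controls in all but norm5.

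**Figure D2:**
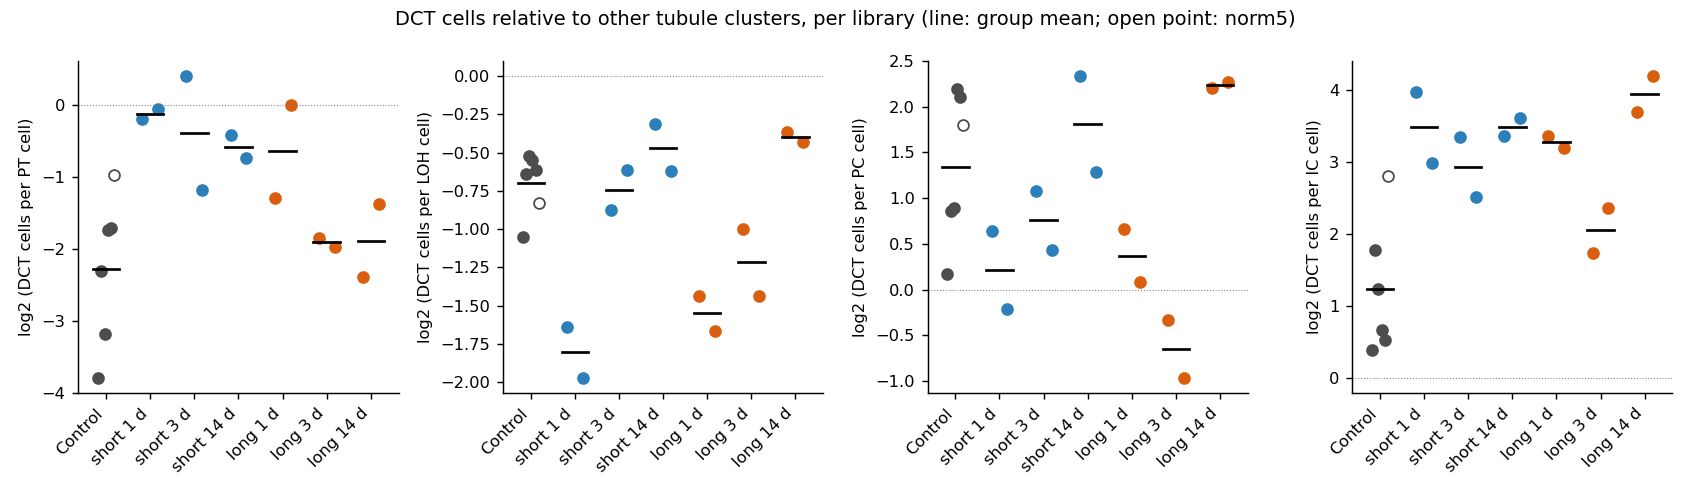
Log2 of DCT cells per PT, LOH, PC and IC cell in each library (vertical axes), for control and for each duration and day (horizontal axis); points are libraries, lines group means and the open point norm5. The 1 d libraries of both durations lie at or below -1.44 per LOH cell and the 14 d libraries at or above -0.62, whereas per IC cell the IRI libraries lie at 1.73 to 4.20 and the controls other than norm5 at 0.39 to 1.78.

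The second annotation was made over 20 libraries and gives the same cells new names, none of them plain DCT. Of the 8339 DCT cells, 3622 (43.4%) became DCT1, 1605 (19.2%) DCT2, CNT, CD-PC, 1583 (19.0%) DCT1, DCT2 and 1328 (15.9%) LOH. Another 93 (1.12%) became PT, and no other name took as much as 1%. DCT1 and DCT2 are the usual names of the early and late part of the segment, CNT of the connecting tubule and CD-PC of the principal cells of the collecting duct.

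The new names were not equally particular to the first DCT cluster. Over the 18 libraries, 66.1% of the 5480 cells named DCT1 were DCT cells before and 20.3% were PT S3 cells. Of the 7894 cells named DCT1, DCT2, only 20.1% were DCT cells and 76.8% were LOH cells. Of the 7140 named DCT2, CNT, CD-PC, 22.5% were DCT cells and 51.5% PC cells. The authors' 2 annotations thus drew the border between LOH and DCT at different places.

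DCT cells took the name LOH more often after injury, at 1 d after both durations and at 3 d after IRI long. In control 5.67 to 12.3% of DCT cells became LOH (median 8.42%). At 1 d it was 28.2 and 37.3% after IRI short and 33.2 and 39.4% after IRI long, all above every control. At 3 d it was 10.8 and 23.6% after IRI short and 29.7 and 42.4% after IRI long, the latter from 30 of 101 and 14 of 33 cells. At 14 d it was 4.90 and 6.30% after IRI short, within or below the control range, and 12.7 and 17.4% after IRI long, above every control.

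The share that kept any name with DCT was 88.6% ± 2.80 in control, 79.1% ± 12.6 after IRI short and 68.2% ± 12.1 after IRI long (SD, n = 6 each). IRI long differed from control by -20.5 points (exact permutation, adjusted p = 0.0130) and from IRI short by -10.9 points (exact permutation within days, adjusted p = 0.0417). IRI short against control gave -9.55 points (exact permutation, adjusted p = 0.134). The call between the durations was lost without any one of IRF10, IRF8, IRF1, IRF5, IRF4 and IRF7 (-8.18 to -10.4 points, adjusted p from 0.0833 to 0.204). It was also lost when days were not kept apart (exact permutation, adjusted p = 0.154). When any tubule name counted, the durations differed by -0.48 points (exact permutation, adjusted p = 0.269). IRI short then differed from control by -0.74 points, which passed (adjusted p = 0.0455). Nearly all DCT cells kept some tubule name, 97.0 to 100% in each library.

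For the name LOH alone, limma on the logit share of 5 name classes, a fit added after seeing the data, gave 1.42 ± 0.21 for IRI long against control (adjusted p = 4.73e-05; 60% of the 5 classes called). It gave 0.65 ± 0.21 for IRI short against control (adjusted p = 0.0317; 40% called) and 0.77 ± 0.21 for IRI long against IRI short (adjusted p = 0.0125; 80% called). Against control, the difference was 1.65 and 1.81 at 1 d after IRI short and IRI long (adjusted p = 0.000359 and 0.00014; 40% called in each), with 0.16 ± 0.36 between the durations (adjusted p = 0.986; 0% called). At 3 d it was 1.80 ± 0.30 for IRI long (adjusted p = 7.44e-05; 40% called), 0.74 ± 0.30 for IRI short (adjusted p = 0.117; 0% called) and 1.06 ± 0.36 between the durations (adjusted p = 0.0281; 40% called). From 1 to 14 d it fell by 2.09 after IRI short (adjusted p = 0.000248; 40% called) and by 1.16 after IRI long (adjusted p = 0.0239; 40% called). At 14 d IRI long lay 1.09 ± 0.36 above IRI short (adjusted p = 0.0157, 60% called). The change from 1 to 14 d, however, did not pass between the durations (0.93 ± 0.51, adjusted p = 0.152, 40% called). Against control at 14 d neither IRI long (0.64, adjusted p = 0.0881) nor IRI short (-0.45, adjusted p = 0.255) passed. Without Scl the IRI long value passed (0.73, adjusted p = 0.0176).

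Several of these calls rested on single libraries. The one for IRI short was lost without any one of norm1, norm2, IRF2, IRF3, IRF10 and IRF8 (0.49 to 0.69, adjusted p from 0.0535 to 0.0791) and with the barcode set as a term, thus against norm5 alone (0.87, adjusted p = 0.245). That between the durations at 3 d was lost without IRF11 (0.60, adjusted p = 0.404) or IRF7 (0.78, adjusted p = 0.248), while IRI short at 3 d passed against control without Scl (0.82, adjusted p = 0.0198) or IRF11 (1.20, adjusted p = 0.0243). The call between the durations at 14 d was lost without IRF10 (0.95, adjusted p = 0.0963) or IRF12 (0.90, adjusted p = 0.109), and the fall from 1 to 14 d after IRI long without IRF5 (-1.03, adjusted p = 0.207) or IRF9 (-0.98, adjusted p = 0.0808). The calls against control of IRI long over all days and at 3 d and of both durations at 1 d were kept without any one library.

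The name LOH also spread over other cells of the same libraries. LOH cells kept it in 18 to 44.3% of cases in control and in 39.6 to 62.5% after injury. PC cells became LOH in 1.92 to 15.6% of cases in control, 7.03 to 19.6% after IRI short and 6.20 to 31.2% after IRI long. The percent of DCT cells that became LOH minus that of PC cells, a measure added after seeing the data, was 0.64 points in control, 5.14 after IRI short and 14.9 after IRI long on average. None of these 3 differences passed (exact permutation, adjusted p from 0.143 to 0.565). Without IRF12, in which 31.2% of 32 PC cells became LOH, IRI long differed from control by 20.0 points and from IRI short by 15.5 points (exact permutation, adjusted p = 0.0278 each).

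**Figure D3:**
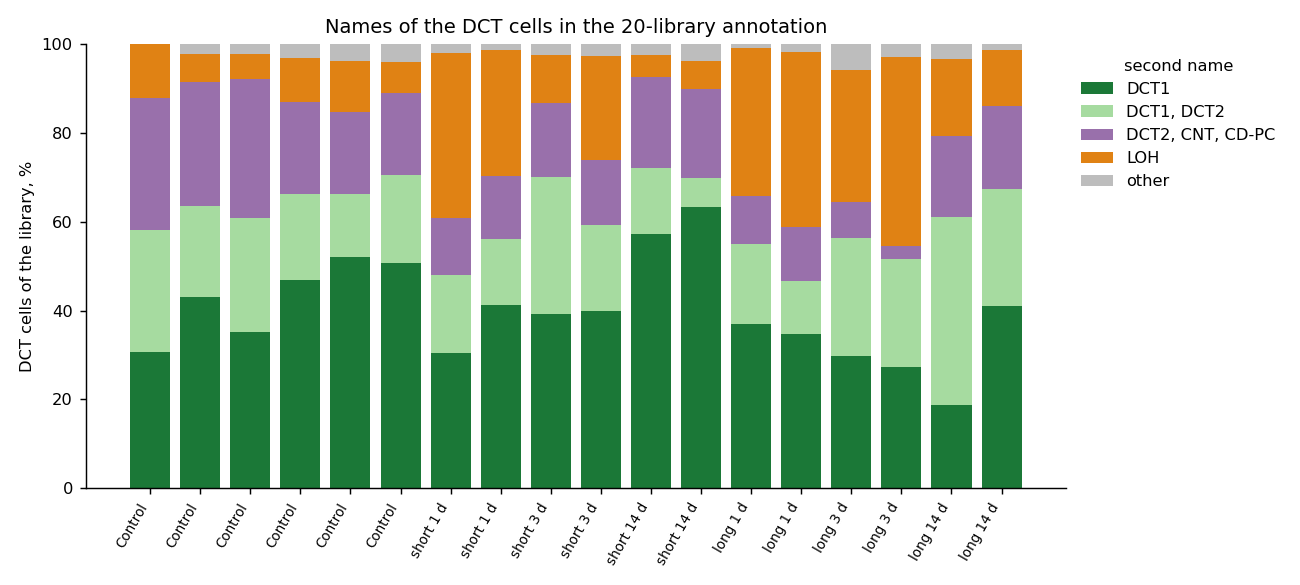
Second names of the DCT cells of each library as percent of its DCT cells (vertical axis), with 1 stacked bar per library grouped by condition (horizontal axis). The LOH segment covers 5.67 to 12.3% in control, 28.2 to 39.4% in the 1 d libraries and 4.90 to 17.4% in the 14 d libraries.

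The name DCT2, CNT, CD-PC, for the late end of the segment, was rarer among DCT cells after injury. It took 18.3 to 31.1% in control (median 24.2%). At 1 d it took 12.8 and 14.2% after IRI short and 10.9 and 12.3% after IRI long, all below every control. At 3 d it took 14.7 and 16.8% after IRI short but 7.92 and 3.03% after IRI long, the latter from 8 of 101 and 1 of 33 cells. At 14 d the 4 libraries were at 18.1 to 20.4%, 3 of them inside the control range and IRF12 (18.1%) just below it. On the logit scale IRI long lay below control over all days (-0.92 ± 0.17, limma adjusted p = 0.000187), and most at 3 d (-1.58 ± 0.23, adjusted p = 5.06e-05; 40% called). IRI short gave -0.47 ± 0.17 against control (adjusted p = 0.0317), and IRI long -0.45 ± 0.17 against IRI short (adjusted p = 0.0296).

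The calls of IRI long over all days and at 3 d were kept without any one library, but with the barcode set as a term, against norm5 alone, the value over all days was -0.60 (adjusted p = 0.122). For IRI short that term gave -0.15 (adjusted p = 0.633), and its call was lost without any one of 8 libraries (-0.40 to -0.49, adjusted p from 0.0514 to 0.0974). The call between the durations was lost, among others, without any one of IRF11, IRF8, IRF1, IRF7 and IRF12 (-0.33 to -0.45, adjusted p from 0.0502 to 0.0782).

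The names DCT1 and DCT1, DCT2 parted the durations at 14 d. DCT1 took 57.1 and 63.3% of DCT cells at 14 d after IRI short, above all 6 controls (30.7 to 52.0%), and 18.8 (IRF12) and 41.0% after IRI long. DCT1, DCT2 took 14.99 and 6.59% after IRI short and 42.3 (IRF12) and 26.2% after IRI long, against 14.4 to 27.5% in control. Against control at 14 d neither name passed after either duration (limma, DCT1 0.70 for IRI short and -0.62 for IRI long, adjusted p = 0.0753 and 0.0881; DCT1, DCT2 -0.86 and 0.66, adjusted p = 0.0560 and 0.0881; 0% called in each). For IRI long both names passed without Scl or IRF9 (DCT1 -0.72 and -1.16, DCT1, DCT2 0.73 and 1.02; adjusted p from 0.0159 to 0.0414). For IRI short DCT1 passed without IRF12 or IRF9 (0.70, adjusted p = 0.0310), and DCT1, DCT2 without any one of Scl, norm4, IRF10, IRF12 and IRF9 (-0.79 to -1.31, adjusted p from 0.0142 to 0.0310). Between the durations at 14 d limma gave -1.32 ± 0.36 for DCT1 (adjusted p = 0.00604) and 1.51 ± 0.36 for DCT1, DCT2 (adjusted p = 0.00446). Without IRF12 these were -0.78 (adjusted p = 0.109) and 1.15 (adjusted p = 0.0825), so that both calls needed that library, which held 149 DCT cells.

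In the 18-library UMAP, a map that places cells of like expression near each other, DCT cells formed 1 field. On average 91.4% of the 30 nearest cells of a DCT cell were DCT cells, 6.31% LOH cells and 1.16% PT S3 cells. All 30 were DCT cells for 4312 cells (51.7%), and for 410 cells (4.92%) most were not. The border of the field was thus mainly with LOH, and PC cells, at 0.59%, were rare along it.

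The second names followed position within this field. Cells later named DCT1 had 97.2% DCT and 1.39% LOH cells among their nearest cells. For cells later named LOH these were 85.0 and 13.3%, and for DCT1, DCT2 they were 88.1 and 11.0%. Cells later named DCT2, CNT, CD-PC had 87.1% DCT, 6.57% LOH and, with 2.56%, the most PC cells of the 4 names. In the 20-library UMAP the cells named LOH lay apart from the rest, with a median second coordinate of 5.65 against 1.53 for DCT1, 0.06 for DCT1, DCT2 and -0.94 for DCT2, CNT, CD-PC. The second names and this map were made over the same 20 libraries, so the separation is no independent check on the names.

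**Figure D4:**
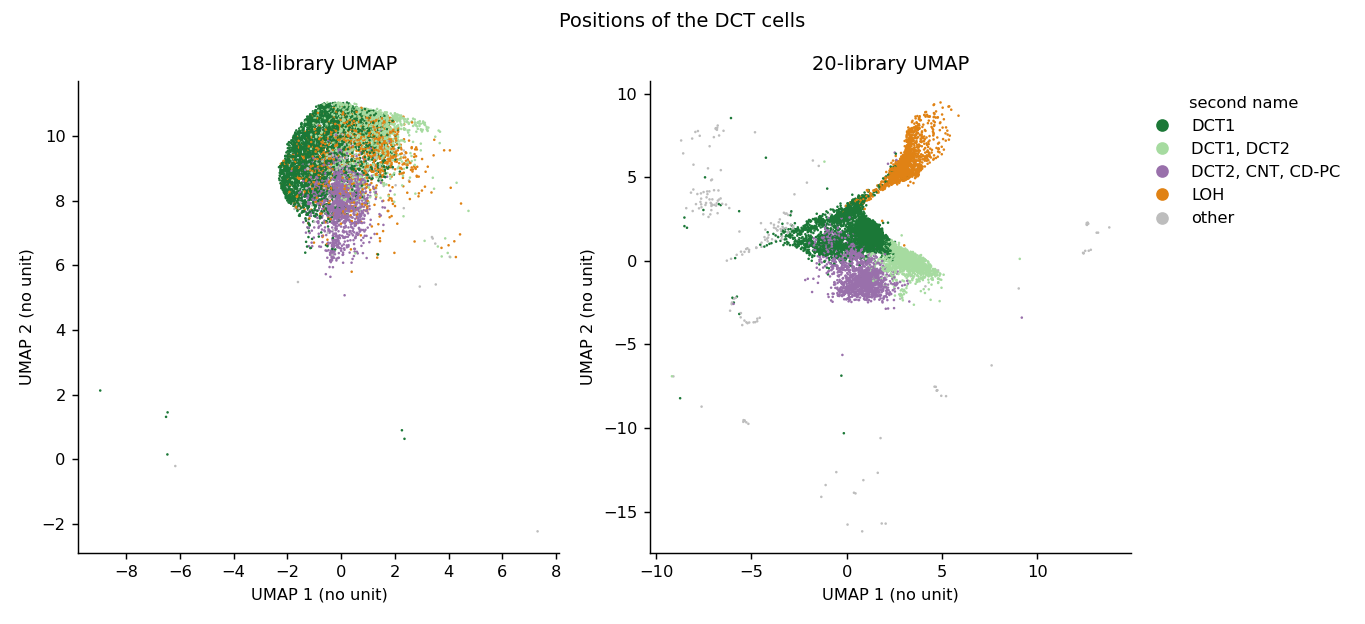
Positions of the 8339 DCT cells in the 18-library UMAP (left) and the 20-library UMAP (right); both axes are UMAP coordinates without unit, each point is 1 cell and colours give its second name. In the left panel the names share 1 field, with DCT2, CNT, CD-PC in its lower part (median second coordinate 8.11 against 9.55 for DCT1), and in the right panel the cells named LOH form a field of their own (median 5.65).

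Where the DCT cells of each library lay was first compared in the 18-library UMAP. The share of DCT cells among nearest cells was 92.1% ± 2.02 in control, 91.6% ± 2.83 after IRI short and 91.1% ± 1.46 after IRI long (SD, n = 6 each). The median distance of DCT cells from their library's median position was 1.37 ± 0.07, 1.36 ± 0.04 and 1.31 ± 0.12 UMAP units. The distance of that position from the mean control position was 0.18 ± 0.12 in control, 0.21 ± 0.10 after IRI short and 0.33 ± 0.08 after IRI long. None of the 9 comparisons passed (exact permutation, adjusted p from 0.250 to 0.922). In the last measure each control library was left out of the mean it was compared with. In the 20-library UMAP the same distance was 0.42 ± 0.19 in control, 0.86 ± 0.46 after IRI short and 1.71 ± 0.78 after IRI long (SD, n = 6 each), and 5 of the 6 IRI long libraries lay at 1.43 to 2.83, above every control (0.19 to 0.62). The spread of DCT cells there was 1.95 ± 0.17, 2.30 ± 0.53 and 2.47 ± 0.44 UMAP units, and the share of DCT cells among nearest cells was 66.5% ± 2.67, 63.0% ± 4.89 and 62.4% ± 7.54. None of these 9 comparisons passed after adjustment, the lowest being the distance for IRI long against control (exact permutation, p = 0.00866, adjusted p = 0.0779).

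The name DCT1 also drew in cells from outside the DCT cluster, mostly PT S3 cells of injured kidneys. In control 0.19 to 3.52% of PT S3 cells became DCT1. In 9 of the 12 IRI libraries the share was above 3.52%, up to 34.1% at 1 d after IRI short (IRF2), 47.6% at 1 d after IRI long (IRF5) and 35.7% at 14 d after IRI long (IRF12). In IRF12 only 28 of the 283 cells named DCT1 were DCT cells (9.89%) and 240 were PT S3 cells (84.8%), while in control 73.6 to 87.4% were DCT cells. Since no expression values were at hand, it was not tested which of the 2 names fits these cells.

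The inhibitor libraries exist only in the second annotation, where the names DCT1 and DCT1, DCT2 were pooled. The pool is not the DCT cluster of the first annotation, since 76.8% of the cells named DCT1, DCT2 in the 18 libraries had been LOH cells. There was 1 library per inhibitor, so the values are given without a test, and intervals are exact 95% binomial (Clopper-Pearson) intervals that cover counting error only. With VX-765 these cells made up 9.77% of 10610 cells (9.22 to 10.4%), and with liproxstatin 4.72% of 12605 cells (4.36 to 5.11%). The IRI long libraries at 14 d without inhibitor were at 5.28 and 5.69%, and the controls at 10.6 to 22.8%. According to the study the inhibitor experiment was a separate, later set, so that inhibitor and experiment cannot be told apart in a comparison with the earlier IRI long and control libraries. The VX-765 library lay between both ranges and the liproxstatin library just below the IRI long libraries without inhibitor.

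Among tubule cells the 2 names took 12.1% with VX-765 and 5.14% with liproxstatin, against 25.7 and 40.0% in IRI long at 14 d and 11.6 to 27.8% in control. Among distal tubule cells they took 44.5% (42.5 to 46.6%) with VX-765 and 51.0% (48.1 to 53.9%) with liproxstatin. This compares with 56.5 and 62.4% in IRI long at 14 d and 43.6 to 48.4% in control. DCT1 alone was 3.43% of all cells with VX-765 and 1.59% with liproxstatin, 3.11 and 4.01% in IRI long at 14 d, and 2.04 to 9.57% in control. The IRI long values include PT S3 cells that were given the name DCT1 and former LOH cells named DCT1, DCT2, and what share of the inhibitor libraries' cells are of these kinds is not known from these tables, as the first annotation does not cover them.

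**Figure D5:**
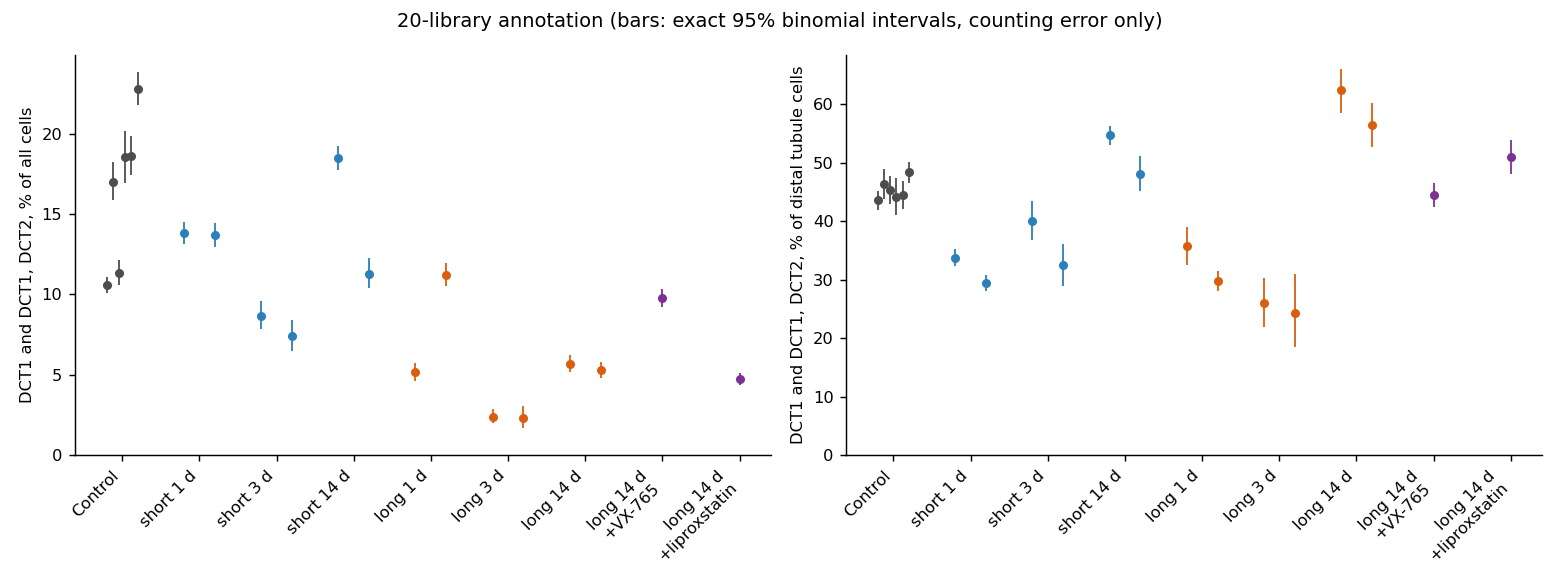
Cells named DCT1 or DCT1, DCT2 in the second annotation as percent of all cells (left) and of distal tubule cells (right), for each of the 20 libraries by condition (horizontal axis); points are libraries and bars exact 95% binomial intervals, which cover counting error only. On the left VX-765 (9.77%) lies between IRI long at 14 d (5.28 and 5.69%) and control (10.6 to 22.8%), with liproxstatin at 4.72%, and on the right both inhibitors (44.5 and 51.0%) lie below IRI long at 14 d (56.5 and 62.4%).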

How the data were processed

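Single-cell suspensions of mouse kidney were sequenced as 10x Chromium 3′ libraries, v3 per the labels. According to the study the authors aligned reads with Cell Ranger (mm10, GRCm38 per the labels), filtered cells, removed doublets, integrated the libraries and named the clusters by hand; the labels also name Seurat. The study states cell filters, doublet removal and integration with LIGER for the data with the inhibitor libraries too, with a lower cell number than the deposited table holds; how its cells were named again is not given in the sources used here. The deposited tables used here give for each cell a cluster name and a treatment group with day, which have no unit, and 2 UMAP coordinates, a score without unit that the authors computed.

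A library was identified by the part of the cell name that precedes the barcode, and its group by the deposited group of its cells. The DCT cells and all lists were chosen with earlier results of these data known. No gene is named by value; clusters were named by a rule: the tubule clusters, second names that hold at least 1% of the DCT cells and clusters that make up at least 1% of their nearest cells. PC cells are named at 0.59% of nearest cells, below that limit, a choice made after their value was seen.

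Shares and log2 ratios were computed per library (0.5 cells added to both terms of a ratio). Group means were compared by two-sided exact permutation tests with the library as the replicate, with all 924 splits of 12 libraries into groups of 6, or the 216 that keep the days apart for IRI long against IRI short, with Benjamini-Hochberg adjustment over 9 shares, 12 ratios, 3 shares of kept names, 9 UMAP measures and 3 differences of renaming. Logit shares (0.5 cells added) were compared with limma 3.58.1 in R 4.3.3 with 7 group means, adjusted within each contrast over 18 clusters, 4 distal tubule clusters or 5 second name classes at a threshold of 0.05. Shares of the same whole are not independent. Both tests were tested on simulated data.

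The number of cells sets the counting error: for the smallest library, with 33 of 2064 cells, the exact 95% binomial interval of the DCT share ran from 1.10 to 2.24%. The remaining steps ran in python 3.11.15 (scipy 1.17.1, numpy 2.4.6, pandas 2.3.3), with matplotlib 3.10.9 for the plots. The alternatives are given in the closing section. Some values for single libraries are not reported here.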

Additional observations from a re-analysis of the deposited data

Results flagged for a closer look

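Of 57 sets of 6 libraries examined for a library far from the others, 5 held one, against 2.85 expected at the chance rate of 1 in 20. For the DCT share of all cells these were IRF10 in IRI short, at 13.1% with the other 5 at 6.12 to 8.68%, and IRF5 in IRI long, at 6.73% with the other 5 at 1.60 to 3.46%. For the DCT share of distal tubule cells it was the control library Scl, at 21.2% with the other 5 at 28.9 to 31.2%. For the distance of the DCT cells from the control position it was IRF7 in IRI long, at 0.48 UMAP units from 33 DCT cells, and in the 20-library UMAP IRF2 in IRI short, at 1.72 units.

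The change from 1 to 14 d differed between IRI long and IRI short for 2 second names of DCT cells in limma, with 40% of the 5 name classes called. For DCT1 the difference of the changes was -1.33 ± 0.50 on the logit scale (adjusted p = 0.0498), and for DCT1, DCT2 it was 1.62 ± 0.51 (adjusted p = 0.0331). With the barcode set as a term, which here equals leaving out norm5, the first did not pass (-1.33, adjusted p = 0.0537). Without one library at a time the first passed in 4 of 18 fits and the second in 14 of 18, with IRF12, IRF8, IRF5 and IRF2 as the libraries without which the second was lost (1.17 to 1.53, adjusted p from 0.0910 to 0.182). The 2 shares are parts of the same whole, so they are not independent of each other.

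Outside the DCT cluster, the percent of PT S3 cells that the second annotation names DCT1 reached 47.6% in IRF5 (1 d after IRI long), above the highest control at 3.52%, and 9 of the 12 IRI libraries lay above that control.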

How the results depend on the processing

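Of 278 values recomputed for 126 results under settings that keep all libraries, 236 kept their side of the threshold or, where untested, moved by less than 1 SD, among them all those with libraries thinned to 2064 cells, no cells added, or 15 or 50 nearest cells. In 14 of the 236, called under neither setting, the sign turned. In the 20-library UMAP this held for the spread of DCT cells, from -0.060 to 0.51 UMAP units for IRI long against control, from -0.0027 to 0.34 for IRI short and from -0.057 to 0.17 between the durations. No paired analysis was possible because the library names carry no replicate number of the labels. Leaving out immune cells ended the calls of the DCT share of all cells for IRI long against control (-0.18) and against IRI short (-0.60), at 3 d (-0.59) and, between the durations, at 14 d (-0.54), and turned the sign of IRI long at 14 d (0.17). The centred log-ratio, which sets a cluster against the mean over all 18, gave calls for IRI short over all days (-1.30), at 1 d (-1.29), at 3 d (-1.71) and at 14 d, where the sign turned (from 0.03 to -0.89, adjusted p = 0.0145), and for IRI long at 1 d (-1.69). IRI long at 1 d also passed with the arcsine square root (-0.10), the second annotation (-0.83) and against norm5 alone, through the barcode set as a term (-1.28).

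With the second annotation IRI short passed at 3 d (-0.78), IRI long against IRI short at 14 d did not (-1.07), and the log2 ratios against control did not pass for PT after IRI short (1.31) or for IC after IRI short (1.71) and IRI long (1.53). With DCT1 alone, added after seeing the data, IRI long at 14 d gave -0.40 against control and -0.87 against IRI short, neither passing. At 14 d after IRI long many of the cells named DCT1 were PT S3 cells (240 of 283 in IRF12 and 83 of 225 in IRF9). The barcode set as a term, which leaves norm5 as the only control and for contrasts among IRI libraries equals leaving it out, ended calls of the distal share (IRI long -0.54 at 1 d, 0.33 at 14 d) and of second names. These were DCT2, CNT, CD-PC (-0.15 for IRI short and -0.37 at 1 d, -0.60 for IRI long and -0.54 at 1 d), LOH (0.87 for IRI short), DCT1 (-0.82 for IRI long, and -1.33 for the difference of the changes from 1 to 14 d) and DCT1, DCT2 between the durations (0.49). It gave a call for the distal share between the durations at 3 d (-0.53). Kept names between the durations did not pass when days were not kept apart (-10.9 points) or when any tubule name counted (-0.48), while IRI short against control then passed (-0.74).

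Against norm5 alone the share of all cells differed by -7.15 (IRI short) and -12.2 points (IRI long), the share of tubule cells by 0.54 and -5.17 points, and the log2 ratio by 0.61 and -0.51 for PT and 0.49 and 0.28 for IC. The cause of these changes was not tested.

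Without one library at a time, the main results with a changed call ranged as follows, and some second names on single days also changed call, with LOH at 3 d from 0.28 to 1.20 for IRI short and from 0.60 to 1.52 between the durations, and DCT1 at 14 d from -1.16 to -0.072 for IRI long and, against 1 d, from 0.77 to 1.24 for IRI short. For the logit share of all cells, IRI long at 1 d ran from -1.11 to -0.41, and the durations at 14 d from -1.73 to -1.15. For the distal share, IRI short ran from -0.72 to -0.41 at 1 d and from 0.22 to 0.50 at 14 d. IRI long ran from -0.22 to -0.090 over all days, from -0.51 to -0.30 at 1 d, from -0.64 to -0.33 at 3 d and from 0.39 to 0.50 at 14 d, and the durations at 3 d from -0.69 to -0.38. Among second names, IRI short ran from -0.54 to -0.40 for DCT2, CNT, CD-PC and from 0.49 to 0.80 for LOH, and IRI long from -0.69 to -0.33 for DCT1. Between the durations DCT1 ran from -0.78 to -0.41, DCT1, DCT2 from 0.34 to 0.64 and DCT2, CNT, CD-PC from -0.56 to -0.33. In the permutation tests between the durations, the share of all cells ran from -5.78 to -4.11 points, that of tubule cells from -6.92 to -4.53, kept names from -14.6 to -8.18, log2 DCT per PT cell from -1.41 to -0.93 and the renaming difference from 6.09 to 15.5. Against control, tubule cells ran from 6.02 to 8.81 points for IRI short, and for IRI long log2 DCT per IC cell from 1.64 to 2.17 and the renaming difference from 10.6 to 20.0.

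The precision is limited by the number of libraries and, for IRI long at 3 d, by 33 and 101 DCT cells.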
